A study of Ovis aries with 16 samples.

Results

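The genes of the proteasome were followed in liver and skeletal muscle of sheep that had been exposed to bisphenol A (BPA) before birth and of unexposed controls. Members were all gene symbols made of PSM, a letter A to G and a number. Among 28524 genes of the table as deposited, 49 matched, and 47 of these had a mean of at least 10 normalized read counts over the 8 libraries of at least 1 tissue. The 2 left out were PSMB11, the catalytic subunit of the thymus form (means of 0.0839 in liver and 0 in muscle), and PSMA8, an alpha subunit of the testis form (means of 3.44 in liver and 3.86 in muscle). The lowest kept were PSMC3IP (16.7 in liver, 36.6 in muscle) and PSMD10 (71.6 in liver, 43.7 in muscle). PSMC3IP encodes a factor of meiotic recombination named for its binding to PSMC3 and is no part of the proteasome. It was kept because the name pattern takes it in, which leaves 46 proteasome genes.

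The proteasome is the protease that degrades proteins tagged with ubiquitin. Its barrel-shaped 20S core is built of rings of alpha subunits, which gate the entry, around rings of beta subunits, some of which cut peptide bonds, while the 19S cap recognizes, unfolds and feeds in the substrate with a ring of ATPases and a set of non-ATPase subunits. Under interferon signalling, and constitutively in many immune cells, the catalytic subunits encoded by PSMB5, PSMB6 and PSMB7 are replaced by those encoded by PSMB8, PSMB9 and PSMB10, giving the immunoproteasome, whose peptides serve antigen presentation; PSME1 and PSME2 encode the PA28 cap that often accompanies it. In muscle the ubiquitin-proteasome pathway degrades contractile proteins and is raised in fasting and wasting. The 47 genes fell into 7 alpha subunits, 7 constitutive beta subunits, 3 immunoproteasome subunits, 6 19S ATPases, 11 19S non-ATPase subunits, 3 chaperones of 19S assembly, 5 activators and inhibitors, 4 chaperones of 20S assembly, and PSMC3IP. No sequence of these genes was used here.

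The 16 libraries came from 8 female Suffolk sheep, each giving vastus lateralis muscle and liver from the tip of the left lobe, in 4 groups of 4: liver of BPA-exposed sheep, liver of controls, muscle of BPA-exposed sheep and muscle of controls. Mothers of the BPA group were injected under the skin with 0.5 mg/kg BPA in corn oil each day between days 30 and 90 of gestation, and mothers of controls with corn oil alone. BPA is a plasticizer with oestrogen-like activity. All 8 offspring were about 21 months old, had been fasted for 48 hours, and were in the follicular phase of a cycle synchronized with prostaglandin, so fasting and synchronization were shared by every group, and exposure had ended before birth. The BPA sheep carry the numbers 910, 918, 977 and 984 and the controls 902, 908, 924 and 928; the 4 values of a group are always given in that order, as the deposited normalized read counts, in which a library's reads are scaled by its size factor. Differences are on the scale of log2(value + 1), BPA minus control or liver minus muscle. They were tested with limma across all genes with a mean of at least 10, with Benjamini-Hochberg (BH) adjustment and a threshold of 0.05, and "passed" refers to that test unless another is named. Counts were compared between samples for 1 gene at a time and never between genes, since transcript lengths were not used here.

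Liver libraries held 4.39 to 19.28 M recovered reads (M standing for 1e6) and muscle libraries 15.15 to 28.54 M, of which 8644 to 72314 per library fell on the 47 genes. The tissues matched their labels: 11 of 11 tested hepatocyte markers were higher in liver, with a median log2 difference of 6.07, and 9 of 9 tested muscle fibre markers were lower, with a median of -15.19. The livers were uneven in depth. BPA 918, 977 and 984 and control 902 had under 15 M reads each (4.66, 7.27, 10.64 and 4.39 M), and BPA 910 and controls 908, 924 and 928 had 17.92, 18.55, 17.93 and 19.28 M. Composition differed too. Relative to the 8-liver mean, hepatocyte markers had median log2 deviations of 1.34, -0.32, -0.92 and -0.79 in BPA livers and -3.05, 1.21, 1.34 and 1.61 in control livers. Fibroblast and stellate cell markers had -0.04, -1.17, -1.66 and -0.65 in BPA livers and 4.33, 0.03, -0.17 and 0.21 in control livers. Control 902 thus had the lowest hepatocyte and the highest fibroblast median of the 8 livers, while BPA 918, 977 and 984 lay under BPA 910 and controls 908, 924 and 928 for both. Whether a lower value in a tissue reflects fewer cells of a type or less RNA per cell cannot be told apart in such bulk samples.

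In liver, 45 of the 47 genes had lower means in BPA-exposed sheep than in controls, but none passed the test. Over all 15689 genes tested in liver, 50.7% had lower means. The median log2 difference of the 47 was -0.81, against -0.01 over all genes. With the adjusted p-value, 0 of 47 members and 0% of all genes passed by limma. With edgeR the figures were 0 of 47 and 0%, and with DESeq2 0 of 47 and 1.25%. At an unadjusted p under 0.05 in limma, 16 of 47 members were lower, against 10.3% of all genes. The plot of differences by class shows the liver estimates left of 0 with standard errors several times those in muscle.

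**Figure D1:**
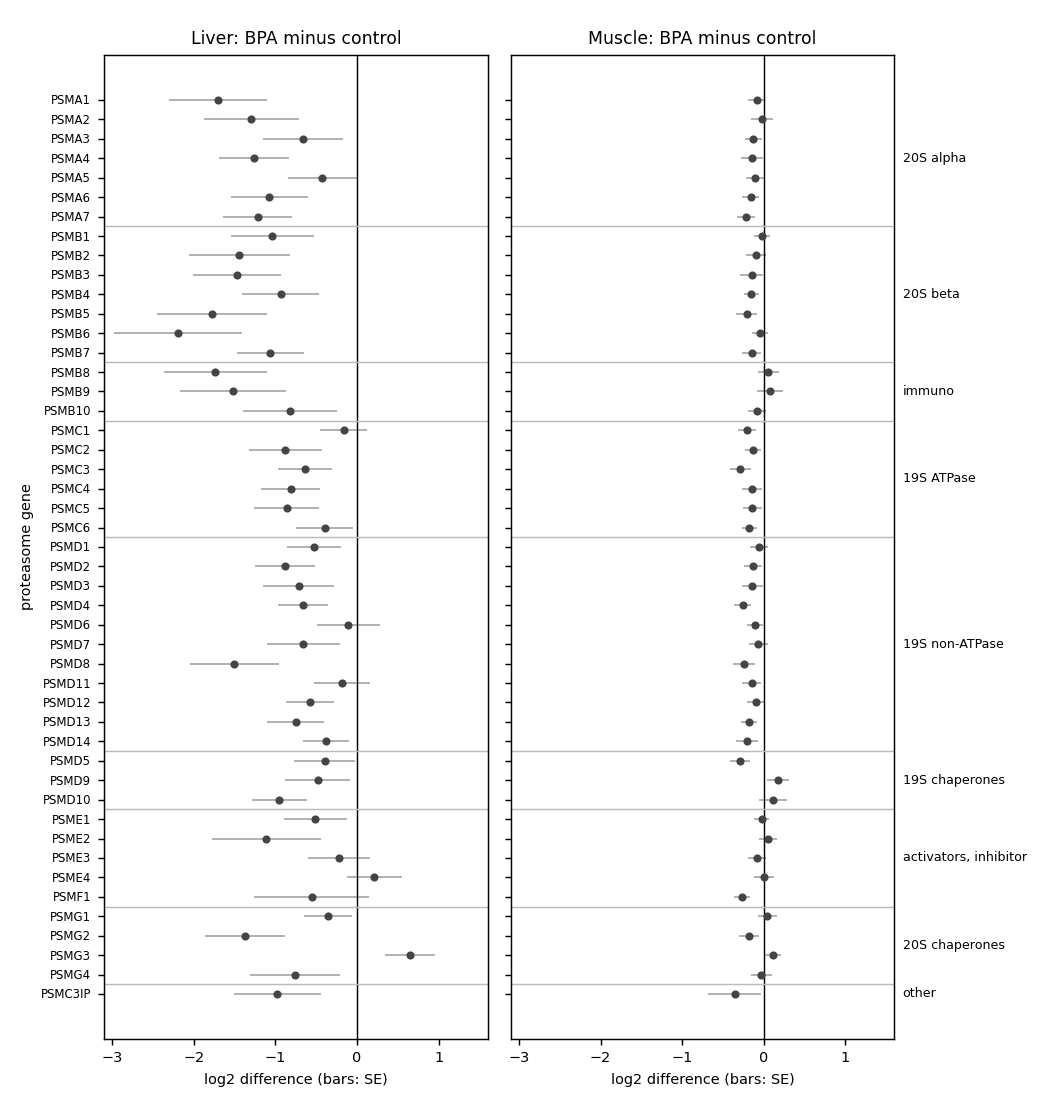
Log2 difference between BPA and control sheep for each of the 47 genes, liver in the left panel and muscle in the right, with bars of 1 SE from the limma fit (4 against 4 libraries), ordered by class. Liver estimates ran between -2.19 and 0.65 and muscle estimates between -0.36 and 0.17; none passed the adjusted threshold.

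The constitutive beta subunits had the largest differences among the larger classes in liver, with a median of -1.44 and lower means for 7 of 7. PSMB6, which encodes the caspase-like catalytic subunit, measured 733, 106, 88.6 and 45.4 in BPA livers and 251, 760.3, 778 and 945 in control livers. PSMB5, for the chymotrypsin-like subunit, measured 669, 156, 119.8 and 71.4 in BPA livers and 249, 759, 751 and 891 in control livers. In both, 3 BPA livers lay under every control, while BPA 910 lay just under the 3 higher controls and far above control 902, so the groups overlapped. The differences were -2.19 (SE 0.784) for PSMB6 and -1.78 (SE 0.67) for PSMB5, with limma adjusted p of 0.256 and 0.257. PSMB3, a structural subunit, measured 554, 206, 115 and 133 in BPA livers and 269, 664, 679.6 and 862 in control livers, a difference of -1.47. PSMB7, for the trypsin-like subunit, measured 476, 249.8, 168 and 165 in BPA livers and 286, 564, 572 and 687 in control livers, a difference of -1.06. The pattern of 3 low BPA livers with BPA 910 high and control 902 low was thus shared by catalytic and structural beta subunits.

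The alpha subunits had a median of -1.22 in liver and lower means for 7 of 7. PSMA1 measured 299, 115, 34.9 and 55.4 in BPA livers and 181, 314, 344 and 398 in control livers, a difference of -1.70 (SE 0.602). PSMA4 measured 323, 131, 106 and 73.9 in BPA livers and 269, 335, 308 and 401 in control livers, and PSMA7 measured 523, 264, 152 and 139 in BPA livers and 418, 546, 542 and 702 in control livers. All 3 were lower in BPA 918, 977 and 984 than in every control, and BPA 910 lay among the controls. Their unadjusted p were 0.0183, 0.015 and 0.0171, and the adjusted p of each was 0.256 in limma. PSMA5 had the smallest difference of the class, -0.43.

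The 3 immunoproteasome genes had a median of -1.52 in liver. PSMB8, the inducible counterpart of PSMB5, measured 352, 43.7, 49.9 and 68.9 in BPA livers and 169.6, 326, 268 and 458 in control livers. PSMB9, the counterpart of PSMB6, measured 163, 31.2, 19.96 and 26.9 in BPA livers and 58.4, 122, 139 and 203 in control livers. PSMB10, the counterpart of PSMB7, measured 412, 85.4, 98.6 and 120.1 in BPA livers and 107, 329, 263 and 442 in control livers. BPA 910 was above 3 of the 4 controls for PSMB8, PSMB9 and PSMB10, and the other 3 BPA livers were below all controls for PSMB8 and PSMB9, whereas for PSMB10 control 902 lay under BPA 984. The differences were -1.73 (SE 0.631), -1.52 (SE 0.652) and -0.82 (SE 0.576), with limma adjusted p of 0.256, 0.27 and 0.431. Macrophage and Kupffer cell markers also had lower means in BPA livers, 12 of 12 tested, of 15 listed. Of these 0 passed, and none was at 0 in every library. Their summed value was 1757 to 7932 in BPA livers and 8385 to 12126 in control livers. Library by library the markers and the immunoproteasome genes parted in control 902. It had the highest of these sums, 12126, but the lowest PSMB8, PSMB9 and PSMB10 of the controls. The summed T and NK cell markers (11 tested of 12 listed) were 253 to 606 in BPA livers and 459.8 to 681 in control livers. Among the other cell types, fibroblast and stellate cell markers had lower means for 9 of 9 tested (median -2.15), cholangiocyte markers for 6 of 7 (median -1.16), endothelial markers for 6 of 8 (median -0.76) and hepatocyte markers for 9 of 11 (median -0.43), beside the 50.7% of all genes, and 0 of each list passed. Their summed values were 2633 to 5661 in BPA livers and 5978 to 118415 in control livers for fibroblast and stellate cells, 374 to 578 in BPA livers and 579 to 13044 in control livers for cholangiocytes, and 5821 to 9517 in BPA livers and 5097 to 10360 in control livers for endothelium. Control 902 alone held the highest fibroblast and stellate cell sum and the highest cholangiocyte sum. In the other controls these sums reached 7867 and 1045. The cholangiocyte sums of BPA 984 (577.9) and BPA 910 (571.6) lay near those of controls 908 (578.7) and 924 (580.8). The part of any of these cells in the proteasome values was not tested.

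Estimates for the caps were smaller than for the core, a difference that was not tested. The 6 ATPases of the 19S base had a median of -0.73 in liver. PSMC4 measured 546, 399.8, 309 and 338 in BPA livers and 366, 789, 748 and 1009 in control livers, PSMC5 861, 306, 458 and 412 in BPA livers and 486, 1022, 960.4 and 1142 in control livers, and PSMC2 533, 381, 167 and 167 in BPA livers and 305, 553, 582 and 664 in control livers. For each, BPA 918, 977 and 984 lay under the 3 deeper controls, and control 902 lay among or just above those 3 BPA livers. PSMC1 departed from its class, with 802, 614, 1042 and 1141 in BPA livers and 1172, 917, 857 and 999 in control livers and a difference of -0.16, its highest values being in BPA 977 and 984 and control 902. The 11 non-ATPase subunits had a median of -0.66. PSMD8, a lid subunit, measured 771, 185, 212 and 163 in BPA livers and 349, 965, 887 and 1082 in control livers, a difference of -1.50 (SE 0.547). PSMD2, a scaffold of the base, measured 1668, 648, 801 and 738 in BPA livers and 1138, 1795, 1841 and 1984 in control livers, and PSMD13, of the lid, measured 684, 314, 317 and 337 in BPA livers and 416, 723, 769.9 and 801 in control livers. The deubiquitinating lid subunit gene PSMD14 (-0.38), PSMD11 (-0.18) and PSMD6 (-0.11) had the smallest differences of the non-ATPase class.

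Among the chaperones of 19S assembly, PSMD10 (gankyrin) measured 78.7, 49.97, 37.4 and 34.4 in BPA livers and 92.3, 83.3, 99.5 and 97.3 in control livers. It was the only one of the 47 genes whose 4 BPA livers all lay below the 4 controls, against 3.98% of all genes, and none lay wholly above, against 3.63%. Its difference was -0.95 (SE 0.334) with a limma adjusted p of 0.256. PSMD9 measured 371, 219, 193 and 166 in BPA livers and 155, 404, 381 and 417 in control livers and PSMD5 253, 244, 105 and 117 in BPA livers and 145, 247, 255.9 and 249.6 in control livers; in both, control 902 lay among or under the BPA livers.

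The chaperones of 20S assembly went separate ways in liver. PSMG2 measured 110.0, 41.6, 23.7 and 23.5 in BPA livers and 84.8, 97.0, 121 and 127 in control livers, a difference of -1.38 (SE 0.49). PSMG4 measured 366, 91.6, 96.1 and 105 in BPA livers and 92.3, 302, 315 and 319 in control livers, with control 902 at the level of the 3 low BPA livers. PSMG3 measured 405, 739, 736 and 754 in BPA livers and 299.6, 531, 421 and 411 in control livers, and its difference of 0.65 (SE 0.309) was 1 of the 2 positive estimates among the 47, with a limma adjusted p of 0.291. BPA 918, 977 and 984, low for most members, were the 3 highest livers for PSMG3, while BPA 910 was among the controls.

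The activators and the inhibitor had a median of -0.51. PSME1 measured 1206, 587, 599 and 526 in BPA livers and 577, 1028, 1046 and 1487 in control livers, and PSME2 measured 621, 167, 114 and 88.2 in BPA livers and 141, 431, 506 and 744 in control livers. For both PA28 subunits BPA 910 was near the higher controls and control 902 was near the 3 lower BPA livers; the differences were -0.51 (SE 0.383) and -1.11 (SE 0.669). PSME3, the nuclear PA28 gamma, measured 344, 658, 215 and 219 in BPA livers and 299.6, 396, 417 and 401 in control livers, a difference of -0.22. PSME4, the PA200 activator, measured 591, 1524, 666 and 658 in BPA livers and 793, 665, 618 and 670.4 in control livers, and its positive difference of 0.21 (SE 0.341) came with a single high value, in BPA 918. PSMF1, which encodes the inhibitor PI31, measured 1474, 487, 397 and 369 in BPA livers and 190.3, 1147, 1316 and 1719 in control livers, with its lowest value in control 902 and a difference of -0.56 (SE 0.709). PSMC3IP measured 16.8, 4.16, 11.2 and 13.4 in BPA livers and 15.1, 27.5, 27.7 and 17.4 in control livers. Adjusted p in limma for these 6 genes were between 0.336 and 0.759.

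**Figure D2:**
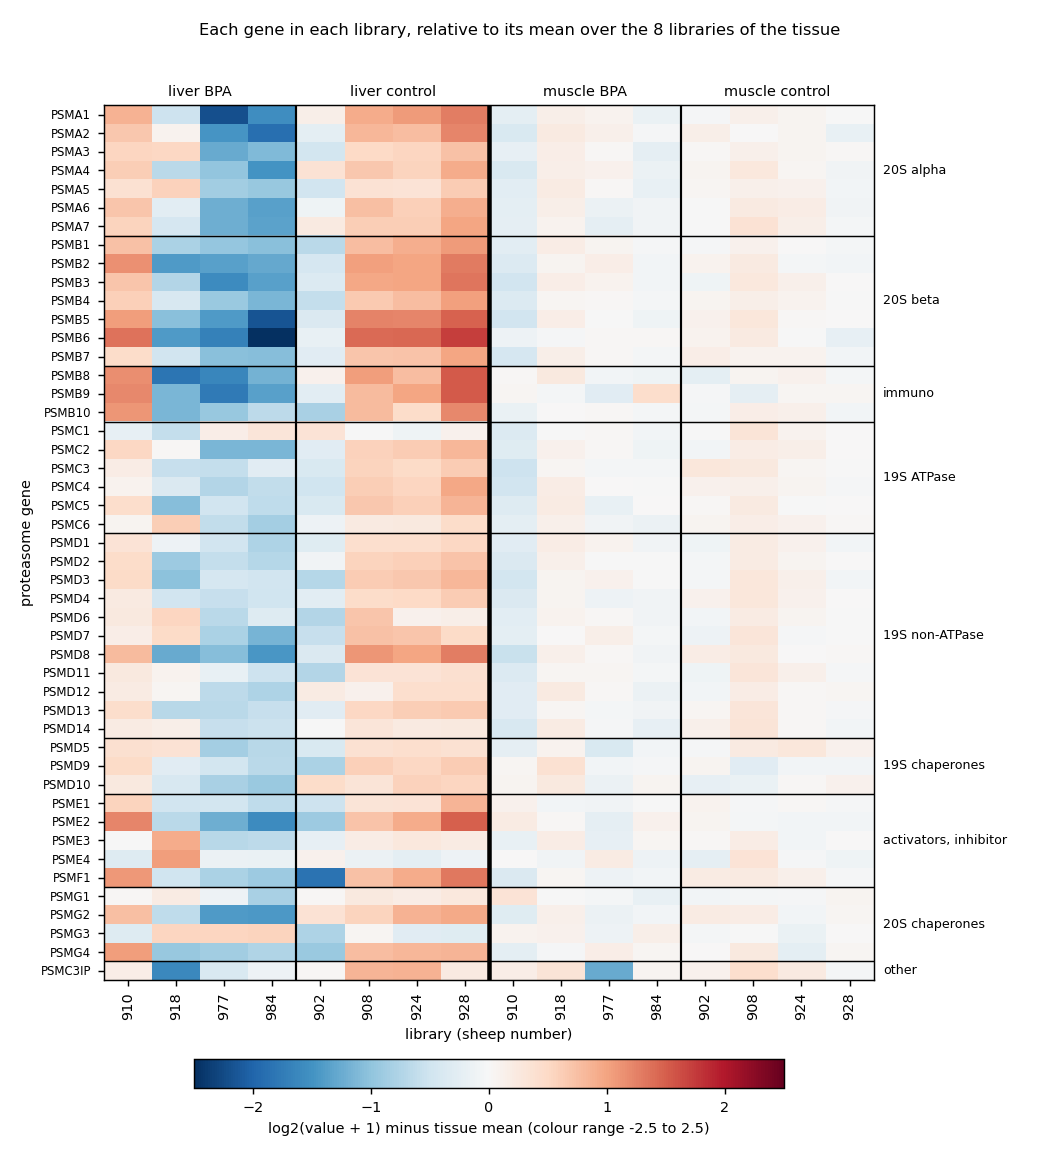
Colour map of log2(value + 1) for each of the 47 genes (rows, by class) in each library (columns, by sheep number within liver BPA, liver control, muscle BPA and muscle control), relative to the gene's mean over the 8 libraries of the tissue. Blue columns in liver are BPA 918, 977 and 984, and more faintly control 902; BPA 910 is red like the other 3 controls, and muscle shows pale colours apart from PSMC3IP in BPA 977.

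Taken library by library, the 47 genes moved largely together within liver. The median of their log2 deviations from the 8-liver mean was 0.47, -0.47, -0.81 and -0.84 in BPA livers and -0.31, 0.62, 0.60 and 0.83 in control livers. The share of all recovered reads on the 47 genes was 0.209%, 0.185%, 0.149% and 0.147% in BPA livers and 0.198%, 0.241%, 0.239% and 0.273% in control livers. BPA 984 was the lowest of the 8 livers for 21 members, BPA 918 and 977 for 10 each, and control 928 was the highest for 35. Set against the range of controls 908, 924 and 928, BPA 918 lay below it for 39 members, BPA 977 and 984 for 44 each, BPA 910 for 31 and control 902 for 43. How many of all genes lay below that range, or were lowest or highest in a given liver, was not counted. The members' median difference from the mean of those 3 controls was -0.16 for BPA 910 and -1.01 for control 902, against -1.13, -1.42 and -1.41 for BPA 918, 977 and 984. Over all genes tested in liver the median was -0.02 for BPA 910 and 0.02 for control 902. For BPA 918, 977 and 984 it was -0.03, -0.0004 and 0.01.

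The low values coincided with read depth: the 4 livers with a negative median were those with under 15 M reads. Within the deeper livers (1 BPA, 3 controls) the members' median difference was -0.16, with 38 of 47 lower, against 52.6% of all genes. Within the shallower livers (3 BPA, 1 control) it was -0.28, with 36 of 47 lower, against 46.6% of all genes. With the log2 library total as a covariate the median was -0.54 and 0 members passed in limma. Depth also moved with the composition described above, and the part of either in the BPA difference was not tested.

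Single libraries decided the count of calls in liver. Leaving out BPA 910 removes the BPA liver with the highest members' median, so a larger median difference was bound to follow. The BPA livers left all had under 15 M reads, and control 902 was the only control that did. Without BPA 910, 16 members passed as lower, against 9.15% of all genes, with a median of -1.15. These were 4 alpha, 5 beta, 2 immunoproteasome and 3 non-ATPase genes, PSMD10 and PSMG2. PSMB6 had the largest difference of the 16, -3.005 (limma adjusted p = 0.011), and PSMB8 the smallest adjusted p, 0.00859, at -2.41. Without control 902 none passed, and the median was -1.11. Leaving out both was chosen after the values were seen. It removes the control with the lowest members' median and the BPA liver with the highest, so a larger difference was bound to follow. All BPA livers left had under 15 M reads and all controls left had more, so depth and exposure cannot be told apart there. In that fit 33 members passed as lower, against 23.5% of all genes, and PSMG3 passed as higher at 0.72 (limma adjusted p = 0.018). With a weight per library estimated from the data, 44 passed as lower, against 31.5% of all genes. When the muscle libraries shared the estimate of the spread, 12 passed as lower, against 8.91%. Members spread less in muscle (median SD 0.192 in BPA and 0.126 in control sheep) than in liver (0.776 and 0.532). That shared estimate thus understates the spread of the livers.

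In muscle, differences between BPA and control sheep were small and none passed. Of the 47 genes 39 had lower means in BPA muscles, against 50.5% of the 14706 genes tested, with a median of -0.13, against 0.00 over all genes. By limma 0 of 47 passed, against 0.129% of all genes, by edgeR 0 of 47, against 0.122%, and by DESeq2 0 of 47, against 0.891%. At an unadjusted p under 0.05 in limma 4 members were lower, against 4.01% of all genes. None had 4 BPA muscles wholly below the controls, against 2.48% of all genes, or wholly above, against 2.05%.

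The 4 genes were PSMF1, PSMD4, PSMD5 and PSMC3. PSMF1 measured 915, 1220.2, 1074 and 1120.4 in BPA muscles and 1366, 1375, 1280.2 and 1163 in control muscles, a difference of -0.26 (SE 0.101). PSMD4, a ubiquitin receptor of the cap, measured 2055, 2770.3, 2421 and 2473 in BPA muscles and 2858, 3218, 2843 and 2676 in control muscles, a difference of -0.26 (SE 0.101). In both the lowest value was in BPA 910, and the other 3 BPA muscles lay within or under the range of the controls. PSMC3, a base ATPase, measured 1885, 2813, 2636 and 2614 in BPA muscles and 3319, 3208, 2814 and 2704 in control muscles, a difference of -0.29 (SE 0.127), and PSMD5 measured 208, 257, 187 and 233 in BPA muscles and 237, 285, 295 and 262 in control muscles, a difference of -0.29 (SE 0.123). Their limma adjusted p lay between 0.534 and 0.625.

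The constitutive catalytic genes overlapped between the groups in muscle. PSMB5 measured 837, 1310.0, 1157 and 1088 in BPA muscles and 1252, 1408, 1188 and 1169 in control muscles, and PSMB6 measured 1589, 1687, 1766 and 1755 in BPA muscles and 1839.7, 2005, 1716 and 1489.7 in control muscles. PSMB7 measured 825, 1221, 1129.9 and 1063 in BPA muscles and 1242, 1171, 1179 and 1059 in control muscles. The differences were -0.21, -0.05 and -0.15. Of the other core genes, PSMA7 had the largest difference, -0.22 (SE 0.112), with 1059.6, 1321, 1053 and 1166 in BPA muscles and 1228, 1595, 1367 and 1188 in control muscles, followed by PSMA6 (-0.16) and PSMB4 (-0.15).

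PSMB8, PSMB9 and PSME2 were among the 8 members with higher means in BPA muscles, though none passed. PSMB8 measured 173, 201.1, 161 and 157 in BPA muscles and 142, 177, 183 and 163 in control muscles, and PSMB9 measured 114, 107, 89.8 and 150.0 in BPA muscles and 107, 94.4, 114 and 114 in control muscles. PSMB10 measured 138, 157, 160.0 and 152 in BPA muscles and 149.8, 175, 170.2 and 148 in control muscles. The differences were 0.06 (SE 0.125), 0.08 (SE 0.161) and -0.08 (SE 0.111). PSME1 measured 355, 315, 312 and 328 in BPA muscles and 352, 322, 334 and 324 in control muscles, and PSME2 measured 282, 251, 211 and 264 in BPA muscles and 257, 239, 236 and 235 in control muscles. All 8 muscles lay within a narrow band for both, with differences of -0.03 and 0.05. PSME3 measured 358, 468, 355 and 422 in BPA muscles and 415, 469, 389.6 and 414 in control muscles, and PSME4 measured 3834, 3603, 4412 and 3492 in BPA muscles and 3276, 4813, 3739.8 and 3552 in control muscles, with differences of -0.08 and 0.01.

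Among the remaining cap and chaperone genes, the muscle estimates with the smallest p of their classes were those of PSMC1 (-0.20), PSMC6 (-0.17), PSMD13 (-0.18), PSMD8 (-0.24), PSMD9 (0.17), PSMD10 (0.11), PSMG2 (-0.18), PSMG3 (0.11) and PSMG1 (0.04). PSMC1 measured 1678, 2113, 2185 and 2043 in BPA muscles and 2126, 2682, 2264 and 2160.2 in control muscles, and PSMD13 measured 1207, 1524, 1434 and 1395 in BPA muscles and 1523, 1812, 1510.2 and 1452 in control muscles. PSMD9 measured 166, 207, 153 and 157 in BPA muscles and 168, 131, 151 and 153 in control muscles. BPA 910 was the lowest muscle for PSMC1 and PSMD13 and among the higher ones for PSMD9. Over all members, BPA 910 was the lowest of the 8 muscles for 32 and control 908 the highest for 28. The matching counts over all genes were not made. Without BPA 910 the members' median was -0.04, without control 908 -0.08.

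The spread within groups set what could be seen. The median SD of the members' log2 values was 0.776 in BPA livers, 0.532 in control livers, 0.192 in BPA muscles and 0.126 in control muscles (n = 4 each); over all genes it was 0.625, 0.501, 0.205 and 0.188 in the same groups. PSMB6 was the most variable member in BPA livers (SD 1.71) and the steadiest in BPA muscles (SD 0.0701). In control livers PSMF1 varied most (1.44) and PSMG1 least (0.104).

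The BPA difference in liver was set against that in muscle in 1 fit over the 16 libraries. None of the 47 members passed for the difference between tissues, as 0% of 13677 genes did. At an unadjusted p under 0.05 in limma 10 members were lower, against 11.8% of all genes, and the members' median was -0.67, against -0.05 over all genes. The 10 were PSMA1, PSMA4, PSMA7, PSMB3, PSMB5, PSMB6, PSMB8, PSMB9, PSMD10 and PSMG2. PSMD10 (-1.07 (SE 0.35)) had the smallest limma adjusted p, 0.201, and PSMB6 the largest difference, -2.14 (SE 0.861). Without sheep 910, 19 members passed as lower, against 12.6% of all genes, and PSMG3 passed as higher at 0.77. That fit lacks the BPA liver with the highest members' median, and the BPA livers left all had under 15 M reads. With a weight per library, 42 passed as lower, against 32.8%.

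**Figure D3:**
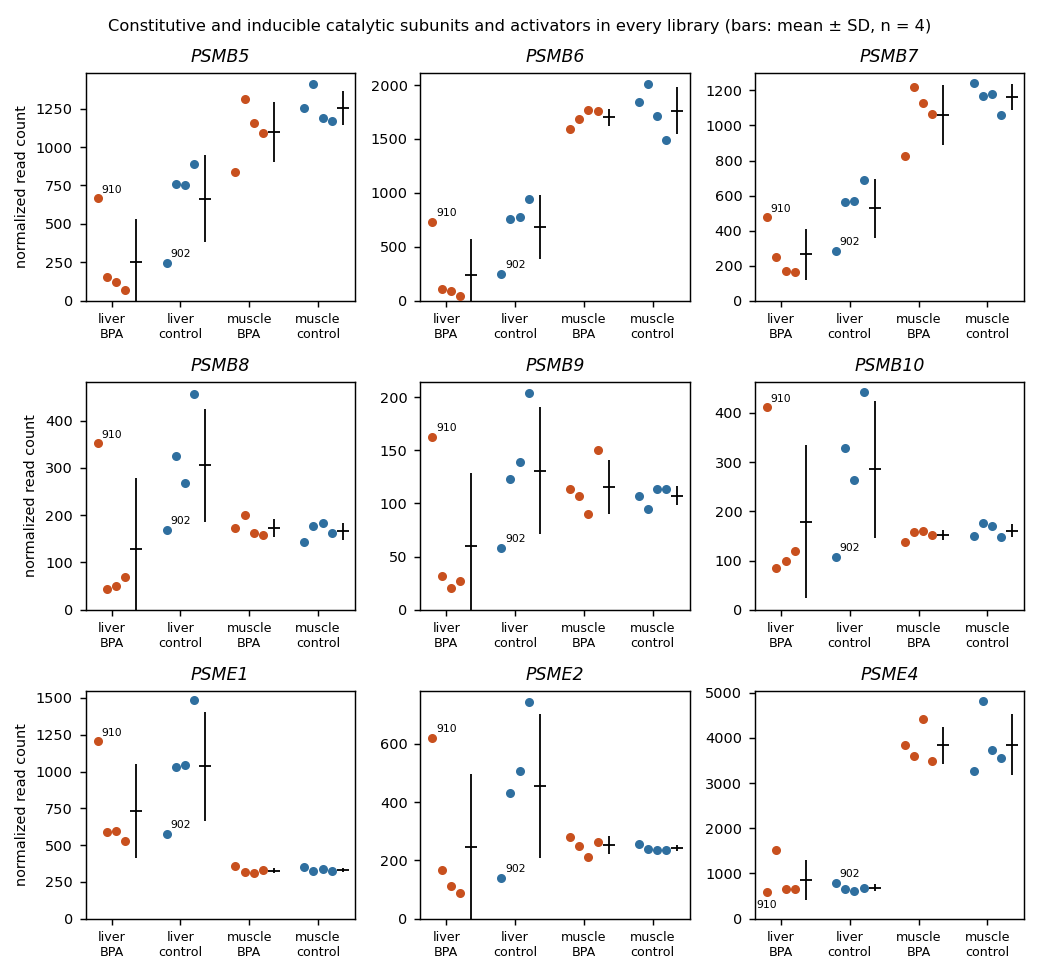
Normalized read counts of 9 genes in every library, by group (liver BPA, liver control, muscle BPA, muscle control), with points for libraries and bars for mean ± SD (n = 4). BPA liver 910 and control liver 902 are marked; for PSMB5 the first has 669 and the other 249, against 71.4 to 156 in the other BPA livers and 751 to 891 in the other controls.

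Between tissues, most proteasome genes were lower in liver than in muscle of the same sheep. Of the 47, 34 passed as lower, against 35.3% of the 15995 genes tested, and 4 passed as higher, against 36.1%. The members' median log2 difference was -1.20, against 0.06 over all genes. For 23 members the 8 livers lay wholly below the 8 muscles, against 21.2% of all genes, and for 1 wholly above, against 20.4%. Taken by animal, 29 members were lower in the liver of all 8 sheep. The count of members lower in liver was 32, 42, 44 and 44 in BPA sheep and 43, 38, 36 and 34 in control sheep. These counts by animal were made for the members only, so they have no share of all genes beside them.

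All 14 constitutive core genes passed as lower in liver. PSMB6 averaged 463 ± 374 in liver and 1731 ± 155 in muscle (n = 8 each, ± SD), a difference of -2.59 (SE 0.43). PSMB5 averaged 458 ± 339 in liver and 1176 ± 169 in muscle, and PSMB4 694 ± 372 in liver and 2061 ± 196 in muscle. The livers of PSMB6 ran between 45.4 and 945 and its muscles between 1489.7 and 2005, with no overlap. Among alpha subunits, PSMA7 averaged 411 ± 205 in liver and 1247 ± 179 in muscle, PSMA1 218 ± 139 in liver and 569 ± 54.7 in muscle and PSMA6 402 ± 205 in liver and 979.8 ± 117 in muscle. Limma adjusted p for the 14 genes lay between 2.73e-06 and 0.00521.

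All 6 base ATPases and 10 of 11 non-ATPase subunits passed as lower in liver, PSMD6 (-0.19) being the exception. PSMC2 averaged 419 ± 192 in liver and 1887 ± 196 in muscle, a difference of -2.33 (SE 0.236). PSMD4 averaged 514 ± 177 in liver and 2664 ± 349 in muscle, a difference of -2.44 (SE 0.157) with the smallest limma adjusted p of the set, 7.63e-10. PSMC5 (-1.62), PSMC1 (-1.21), PSMD12 (-1.75) and PSMD2 (-1.73) were the next largest among their classes. PSMD4 livers ran between 326 and 753 and its muscles between 2055 and 3218, well apart.

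The genes higher in liver were a chaperone of 20S assembly, 2 chaperones of 19S assembly and a PA28 subunit. PSME1 averaged 882 ± 359.9 in liver and 330.2 ± 16.2 in muscle, a difference of 1.31 (SE 0.194) with a limma adjusted p of 1.56e-05, and was the member whose 8 livers lay wholly above the 8 muscles. PSMG3 averaged 537 ± 182 in liver and 296 ± 22.9 in muscle (0.79), PSMD9 288 ± 115 in liver and 161 ± 21.8 in muscle (0.74) and PSMD10 71.6 ± 26.9 in liver and 43.7 ± 4.70 in muscle (0.60). PSME4 went the other way from PSME1: it averaged 773 ± 309 in liver and 3840.2 ± 516 in muscle, a difference of -2.37 (SE 0.18), with its liver maximum of 1524 under its muscle minimum of 3276. PSMG2 (-1.82) and PSMG1 (-0.97) passed as lower, as did PSMC3IP (-1.18). PSME2 (0.11), PSME3 (-0.24), PSMF1 (-0.77), PSMG4 (-0.69) and PSMD5 (-0.35) did not pass.

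The 3 immunoproteasome genes were the only class in which no member passed between tissues over all 8 sheep. PSMB8 averaged 217 ± 157 in liver and 169.7 ± 17.9 in muscle, PSMB9 95.6 ± 70.4 in liver and 111 ± 18.1 in muscle and PSMB10 232 ± 148 in liver and 156 ± 12.1 in muscle (n = 8 each, ± SD). The differences were -0.11 (SE 0.345), -0.64 (SE 0.358) and 0.29 (SE 0.313), with limma adjusted p of 0.794, 0.119 and 0.422. PSMB8 was higher in the liver of 5 of 8 sheep, and PSMB9 and PSMB10 of 4 of 8.

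**Figure D4:**
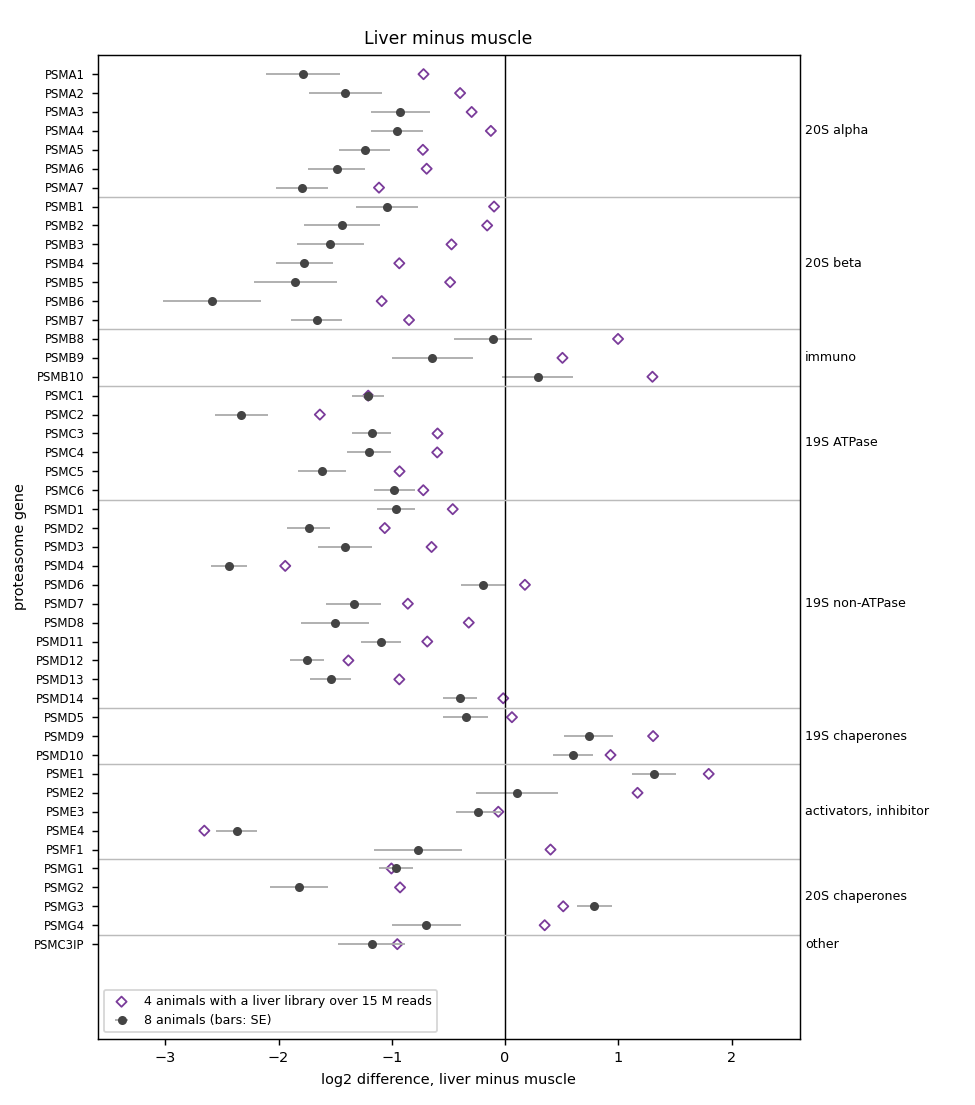
Log2 difference between liver and muscle for each of the 47 genes, as filled points with bars of 1 SE over all 8 sheep and as open diamonds over the 4 sheep whose liver library exceeded 15 M reads. Diamonds lie right of the points for most genes, with a median of -0.60 against -1.20, and PSMB8, PSMB10 and PSME2 lie right of 0 in the 4 sheep.

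The tissue comparison also depended on the shallow livers in size. In the 4 sheep whose liver library exceeded 15 M reads (BPA 910, controls 908, 924 and 928), 30 members passed as lower, against 38.1% of all genes, and 9 as higher, against 35.8%, with a median of -0.60. PSMB8 (0.9975, limma adjusted p = 0.00147), PSMB10 (1.301, adjusted p = 0.0003), PSME2 (1.17, adjusted p = 0.000522), PSMF1 (0.40, adjusted p = 0.0387) and PSMG4 (0.35, adjusted p = 0.0437) passed as higher there, in addition to the 4 genes named above. PSMB8, PSMF1 and PSMG4 had negative estimates over all 8 sheep. PSMA4, PSMB1, PSMB2 and PSMD14 no longer passed as lower. Macrophage and Kupffer cell markers were higher in liver as well: 12 of 12 tested had higher means and 9 passed, against 36.1% of all genes over the 8 sheep. Their part in the PSMB8, PSMB10 and PSME2 values was not tested.

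The balance of inducible to constitutive catalytic subunits was followed as a ratio within each library, which cancels its scaling; it compares samples and is not a stoichiometry, since transcript lengths were not used. PSMB8 stood at 28.0% to 96.5% of PSMB5 in liver, with a median of 47.2%, and at 11.4% to 20.6% in muscle, with a median of 14.2%. PSMB9 stood at 16.1% to 59.3% of PSMB6 in liver and at 4.71% to 8.55% in muscle. PSMB10 stood at 34.2% to 86.5% of PSMB7 in liver and at 12.1% to 16.8% in muscle. No liver ratio overlapped the muscle ratios of the same pair.

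All 3 ratios were higher in the liver than in the muscle of 8 of 8 sheep. The mean paired log2 difference was 1.75 ± 0.643 for PSMB8 to PSMB5, 1.94 ± 0.462 for PSMB9 to PSMB6 and 1.95 ± 0.351 for PSMB10 to PSMB7 (SD, n = 8 sheep), or 3.36-fold, 3.85-fold and 3.87-fold. The exact two-sided sign-flip permutation test gave p = 0.00781 for each, the smallest that 8 pairs allow, and 0.00781 after BH adjustment over the 3 ratios. In the 4 sheep with deep livers the differences were 1.55, 1.58 and 2.04, each at an exact p of 0.125, the smallest that 4 pairs allow.

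**Figure D5:**
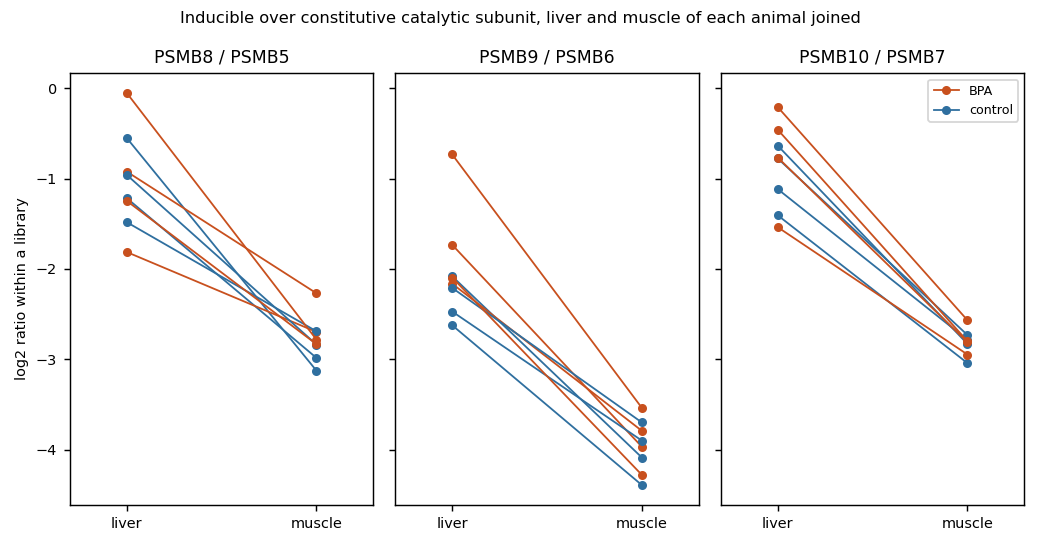
Log2 ratio of each inducible catalytic subunit to its constitutive counterpart within a library, with liver and muscle of each sheep joined by a line, in 3 panels, for 4 BPA and 4 control sheep. Every line runs downward between liver and muscle, and the 2 colours are mixed in each tissue.

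Between BPA and control sheep the ratios did not differ beyond the spread. In liver PSMB8 to PSMB5 averaged -1.01 ± 0.737 in BPA sheep and -1.05 ± 0.397 in control sheep on the log2 scale (SD, n = 4 each), so the lower PSMB8 and lower PSMB5 of BPA 918, 977 and 984 left their ratio between 28.0% and 96.5%, against 35.7% to 68.2% in controls. PSMB9 to PSMB6 had the largest difference in liver, 0.67, with 22.2% to 59.3% in BPA sheep and 16.1% to 23.3% in control sheep, at p = 0.0857 in the exact two-sided permutation test. PSMB10 to PSMB7 differed by 0.24 in liver. In muscle the differences were 0.26, 0.13 and 0.07. After BH adjustment over the 6 exact permutation tests the smallest p was 0.514; 4 against 4 libraries cannot give an unadjusted p under 0.0286.

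Genes that work with the proteasome but carry other names went largely with it between tissues. Of 30 such genes (extra subunits, adaptors, ubiquitin shuttles, ubiquitin genes, regulators and the AAA ATPase VCP) 28 were tested, of which 24 passed as lower in liver and 4 as higher, against the same 35.3% and 36.1% of all genes. ZFAND5, a ubiquitin-binding activator known from wasting muscle, averaged 582 ± 149 in liver and 6313 ± 706 in muscle, a difference of -3.47. NFE2L1, the transcription factor that drives proteasome genes when the protease is inhibited, averaged 2231 ± 513 in liver and 20658 ± 1418 in muscle, a difference of -3.24. ECPAS, a scaffold that holds core and cap together, averaged 1571 ± 451 in liver and 10575 ± 859 in muscle, and the ubiquitin shuttle gene UBQLN2 averaged 311 ± 107 in liver and 1859 ± 130.1 in muscle. Livers and muscles did not overlap for these 4 genes, whose limma adjusted p lay between 9.38e-13 and 3.96e-09. The 4 higher in liver, named after their values were seen, were ZFAND2A (1.91), PAAF1 (1.01), NGLY1 (1.10) and UBQLN1 (0.57). Between BPA and control sheep none of the 28 passed in liver, where 6 were lower, against 10.3% of all genes, and 1 higher, against 7.8%, at an unadjusted p under 0.05 in limma. None passed in muscle, where 3 were lower, against 4.01%, and none higher, against 3.76%.

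PSMB8 and PSMB9 neighbour the peptide transporter genes TAP1 and TAP2 in the RefSeq gene order of assembly ARS-UI_Ramb_v3.0, PSMB8 lying between them. TAP1 measured 483, 192, 304 and 359 in BPA livers and 204, 415, 375 and 470.4 in control livers, and TAP2 measured 484, 167, 225 and 328 in BPA livers and 273, 408, 383 and 576 in control livers. As for PSMB8, BPA 910 was high and BPA 918 low for both, but BPA 984, below all controls for PSMB8, lay within the range of the controls. In liver against muscle TAP1 (-0.31) and TAP2 (-0.13) did not pass. PSME2 and PSME1 also lie close together, with only EMC9 between them in that order.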

How the data were processed

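RNA was measured in 16 libraries, liver and vastus lateralis muscle of 4 BPA-exposed and 4 control sheep, made with a low-input kit after depletion of ribosomal RNA, per the labels' protocols. Trimmomatic, FastQC and DESeq2 1.24.0 were used, per the submitters' processing notes; the aligner, counter, annotation, build and strandedness were not given in the sources used here, so overlapping genes and close copies are uncertain. The deposited signal is a normalized read count: each library's counts were scaled by its size factor. Whole reads were recovered from the steps between values: within 0.1 read at least 99.992% of values in each library came out whole. All 47 members were found in the RefSeq table (assembly ARS-UI_Ramb_v3.0), which served for names and gene order.

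Each tissue was tested in R 4.3.3 by limma 3.58.1, taking log2(value + 1) with an intensity trend, keeping genes whose mean reached 10, with BH adjustment over all genes; this scale understates changes of low genes. A fit of 4 group means over the 16 libraries tested liver against muscle and the difference between BPA effects. All values are over 4 libraries a group, each from a separate animal. Whole-read counts recovered from the deposited table went into edgeR 4.0.16 (quasi-likelihood test) and DESeq2 1.42.0. Ratios were tested by exact permutation. The steps were tested on simulated data. Liver and muscle are paired by the sheep number in the labels; across genes, the deviations of the 2 tissues of a sheep correlated by -0.10 to 0.12, and those of a liver with the closest muscle of another sheep by 0.09 to 0.17, so the pairing rests on the labels. The members and gene lists were chosen with earlier results of these data known. Genes named with values were the catalytic subunits and activators, the 3 of each class with the smallest p (BPA against control) or the largest passing difference (liver against muscle), and up to 5 passing related genes, of which 1 is not reported here. For muscle, some of these are given by their differences only. Alternatives were other pseudocounts (0.5 and 10), no filter, TMM scaling, library weights, both count tests, depth as a covariate, the animal as a block and leaving out each sheep. No column of values was left unused.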

Additional observations from a re-analysis of the deposited data

Results flagged for a closer look

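In 8 of 92 sets of 4 libraries, 1 library lay far from the other 3. Its gap to the nearest neighbour, as a share of the set's range, was above Dixon's critical value for 4 samples. Chance gives about 1 in 20 such sets where sets are independent. These sets were not, since the classes, single genes and ratios came from the same libraries and genes. Gaps of single genes were taken on the scale of log2(value + 1), while their values are printed below as normalized read counts.

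In BPA livers, sheep 918 was high for PSME4 (PA200), at 1524 against 591 to 666 in the other 3, a gap of 0.873 of the range. Sheep 910 was high for PSME1, at 1206 against 526 to 599, a gap of 0.843, and for the median deviation of the activators and the inhibitor, at 0.55 against -0.69 to -0.48, a gap of 0.832.

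In control livers, sheep 902 was low in 5 sets. PSMB5 stood at 249 against 751 to 891 in the other 3, a gap of 0.866 of the range. PSMB6 stood at 251 against 760.3 to 945, a gap of 0.836. PSME3 stood at 299.6 against 396 to 417, a gap of 0.849. The median deviation of the 19S non-ATPase genes was -0.31 against 0.51 to 0.52, a gap of 0.978, and that of the 20S assembly chaperones was -0.37 against 0.40 to 0.55, a gap of 0.837.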

How the results depend on the processing

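In liver BPA against control 0 members passed. With a weight per library 45 did (44 as lower, against 31.5% of all genes). With all 16 libraries in 1 limma fit 12 did, all lower, against 8.91%. When each sheep was left out 0 to 16 did (16 without BPA 910, all lower, against 9.15%). Without control 902 and BPA 910, an alternative chosen after seeing the data, 34 did (33 as lower, against 23.5%). For the difference between BPA effects, 0 passed. With library weights 44 did (42 as lower, against 32.8% of all genes), with a median of -1.38 in place of -0.67. When each sheep was left out 0 to 20 did (20 without BPA 910, of which 19 as lower, against 12.6%). Between liver and muscle 38 passed, and 36 to 44 under the other settings run on all 8 sheep or 7 of them (36 by DESeq2, which gave 2 members no adjusted p). The members' median of -1.20 became -0.60 in the 4 sheep with a liver library over 15 M reads, also chosen after seeing the data, where PSMB8 changed direction to 0.9975 and PSMF1 to 0.40. The cause of these shifts was not tested. With the animal as a replicate block the paired fit gave 38 passing members, all 38 the same, and 0 for the difference between BPA effects; it changed no call. In muscle 0 members passed under every alternative run. The 3 immunoproteasome ratios stayed higher in liver, with an exact paired adjusted p of 0.00781 to 0.0156 over 8 or 7 sheep. By the exact test without the pairing (no replicate block) it was 0.000155. In the 4 sheep with deep livers (1.55, 1.58 and 2.04) it was 0.125, the smallest that 4 pairs allow. No ratio passed between BPA and control, with log2 differences from -0.28 to 0.83. With a sheep left out, however, the exact permutation test cannot give a p under 0.05. Those settings could therefore not pass and show only the size of the differences. The median of all genes between tissues was 0.06 in limma, 0.20 in edgeR and 0.15 in DESeq2, so differences shift by that much between tools. Depth was under 15 M reads in 4 of 8 livers.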

Other observations

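Genes of peptide loading and of interferon signalling, which act downstream of or upstream of the immunoproteasome, were listed beside it. Of 14 such genes, 8 passed as higher in liver than in muscle, against 36.1% of all genes, and 3 as lower, against 35.3%, by limma, and none passed between BPA and control in either tissue. B2M, which encodes the invariant chain of MHC class I and is named after its values were seen, measured 1092, 106, 52.4 and 90.7 normalized read counts in BPA livers and 840.4, 883, 933 and 1318 in control livers, a log2 difference of -2.66 (SE 0.795) with a limma adjusted p of 0.256. BPA 918, 977 and 984 were far under every control and BPA 910 was within their range, the order also seen for PSMB8 and PSMB9. In muscle B2M measured 972, 1008, 845 and 824 in BPA sheep and 1121, 892, 1038.5 and 945 in control sheep. NGLY1, which processes the NFE2L1 protein, went the other way, with 556, 1759, 1014 and 1294 in BPA livers and 603, 514, 493 and 552 in control livers, a difference of 0.98 (SE 0.36), and was the only one of the related genes higher at an unadjusted p under 0.05, against 7.8% of all genes.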
